A study of Mus musculus with 37 samples.

Results

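Scml2 and 8 other genes of the canonical form of Polycomb repressive complex 1 (PRC1) were followed in mouse primordial germ cells (PGCs), from which eggs and sperm later form. The 9 genes were Scml2, Scmh1, Bmi1, Pcgf2, Ring1, Cbx2, Cbx8, Phc1 and Phc2. They were found by symbol among the 24318 genes of each deposited table, and all 9 were present at both stages. They were chosen with the difference between genotypes at each stage in view, so that difference is described here and not tested, and it supports nothing.

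The libraries came from Oct4-GFP-positive cells sorted from embryos, whose polyadenylated RNA was amplified and then made into libraries. In the conditional knockout (DCKO in the labels) the cross joins a loxP-flanked Dnmt1 allele to Cre under the Blimp1 promoter, which is active in early germ cells. Dnmt1 copies DNA methylation onto the new strand after replication. DCKO libraries are labelled Dnmt1 -/- and control libraries wild type. The labels name the parents of the cross (females homozygous for the floxed Dnmt1 allele with the Oct4-IRES-Gfp reporter, males with Blimp1-Cre) but not the alleles of each embryo, so which of them the control cells carry is not stated. The E10.5 stage (E, days of embryonic development) had 3 DCKO libraries, 2 of them female, and 4 controls, 2 of each sex. The E11.5 stage had 10 DCKO libraries, 6 of them female, and 8 controls, 4 of each sex. The labels also list 12 E13.5 samples, not analysed here.

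PRC1 is an E3 ligase that places a single ubiquitin on histone H2A. Its catalytic core pairs a RING protein (Ring1 or Rnf2) with a PCGF protein, and in canonical PRC1 the PCGF protein is Bmi1 or Pcgf2. A CBX protein brings this core to histone H3 methylated by Polycomb repressive complex 2, and a PHC protein joins complexes together through its SAM domain. SCM proteins such as Scml2 and Scmh1 bind the PHC proteins through SAM domains of their own. Scml2 is an X-linked gene known for its part in the male germ line, where its protein acts with PRC1 and the deubiquitinase Usp7 on genes of the somatic programme.

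DNA methylation falls on CG dinucleotides, so the promoter of Scml2 is shown with that of Scmh1, its autosomal relative, with CG in capitals. Both are the strand read by the gene, from 250 bases before to 50 bases after the RefSeq start, on GRCm38.p6. They lie at chrX:161162500-161162799 (plus strand) and at chr4:120405098-120405397 (plus strand, the first of 2 Scmh1 starts).
Scml2: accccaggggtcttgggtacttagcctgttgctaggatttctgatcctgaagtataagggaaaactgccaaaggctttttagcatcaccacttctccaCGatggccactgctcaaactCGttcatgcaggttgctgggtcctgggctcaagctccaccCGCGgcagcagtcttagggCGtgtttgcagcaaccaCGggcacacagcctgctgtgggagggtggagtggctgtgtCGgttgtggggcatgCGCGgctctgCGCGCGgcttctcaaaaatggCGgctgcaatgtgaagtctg
Scmh1: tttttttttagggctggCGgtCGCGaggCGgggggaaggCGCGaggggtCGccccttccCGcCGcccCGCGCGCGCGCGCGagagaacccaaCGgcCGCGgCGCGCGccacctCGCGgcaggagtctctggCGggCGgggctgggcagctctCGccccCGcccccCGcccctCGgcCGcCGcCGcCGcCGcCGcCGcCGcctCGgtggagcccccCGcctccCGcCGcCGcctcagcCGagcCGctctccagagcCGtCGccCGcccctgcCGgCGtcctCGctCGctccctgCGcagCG
The Scml2 window holds 13 CG dinucleotides, more than 62.1% of the 32851 RefSeq promoter windows of the same length, whose median is 7. The Scmh1 window holds 54, and its second start holds 0. Of the 9 genes, 8 had a promoter in the table. The windows held 23 CG in Bmi1, 10 in Pcgf2, 37 in Ring1, 24 in Cbx8 and 9 in Phc1, and 19, 2 and 45 at the 3 starts of Phc2. A search of both strands found CACGTG, an E-box, in the windows of Bmi1, Cbx8, Pcgf2 and the first Phc2 start, and in 7.15% of all windows. GGCGGGA, an E2F-type motif, was found in those of Cbx8, Pcgf2 and the first Scmh1 start, and in 11.3% of all windows. The Scml2 window held neither. No methylation was measured in these libraries, and the expression tables give no coordinates.

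Values are RPKM, read counts scaled by transcript length and by the mapped reads of the library. Comparing genes by them, as in the order of levels and the shares of pairs, assumes even coverage along each transcript. That was not checked for this amplified RNA. Genes averaging 1 RPKM or more over a table entered the tests, which left 11584 genes for E10.5 and 12667 for E11.5, and 8 of the 9 genes passed at each stage, Cbx8 not. All differences and standard errors (SE) are of log2(RPKM + 1), a scale that shrinks the changes of weakly expressed genes. Depth is unknown, since the values carry no steps of whole reads. Libraries held between 9125 and 11095 genes of 1 RPKM or more at the earlier stage, and between 8277 and 13200 at the later one. Dnmt1 lay between 14.9 and 29.6 RPKM in DCKO libraries and between 74.1 and 107 RPKM in control libraries at E10.5. At E11.5 it lay between 13.0 and 59.4 RPKM in DCKO libraries and between 72.9 and 296 RPKM in control libraries. All 10 PGC genes checked were above 0 in every library except Nanos3, listed at 0 in 2 E11.5 libraries. A value above 0 does not by itself settle that a library is of germ cells. Of 24 markers of other cells, 6 were above 0 in all 18 E11.5 libraries, among them the mesenchymal genes Pdgfra, Col1a1 and Col1a2 and Pecam1, an endothelial gene that germ cells also express. Col1a2 had a median of 6.65 RPKM and reached 166 RPKM, and the embryonic globin gene Hba-x, listed at 0 in 6 libraries, reached 1470 RPKM. The gonadal genes Wt1 and Lhx9 were listed at 0 in 3 and 2 libraries and Nr5a1 in 11, and the leukocyte gene Ptprc in 12. The part of such cells in the results was not tested, except in fits that hold these markers as a covariate. At E11.5 the mean log2 value of all 24 ran from 0.54 to 3.86 in DCKO libraries and from 0.72 to 4.53 in control libraries. At E10.5 it ran from 0.66 to 1.83 in DCKO libraries and from 0.55 to 3.01 in control libraries. Male control 3 of E11.5 stood apart, with the highest value of other-cell markers, 4.53, the lowest value of PGC markers, 3.56, and the most genes at 1 RPKM or more. Male control 4 stood apart as well, with the fewest such genes. In male control 3 the PGC markers summed to 353 RPKM, against an E11.5 median of 3149 RPKM. That library stayed in the main fits as a germ cell control. In bulk samples, fewer cells of a type and less RNA per cell cannot be told apart.

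Scml2, the germline SCM protein, was higher in DCKO than in control germ cells of each sex at E11.5. In female DCKO libraries it ranged from 8.97 to 21.2 RPKM with a median of 14.4 RPKM, and in the 4 female control libraries it was 1.63, 2.45, 6.90 and 7.02 RPKM. In male DCKO libraries it was 28.5, 21.1, 23.5 and 66.6 RPKM, and in male control libraries 9.44, 10.05, 2.64 and 0.347 RPKM. Within each sex, the lowest DCKO library lay above the highest control library. Among all 12667 tested genes, 0.371% separated in this direction in females, 0.845% in males and 0.0158% in both, which were Dazl, a germline RNA-binding protein gene, and Scml2. Since Scml2 was chosen on this contrast, nothing is read from that count. Over both sexes Scml2 averaged 22.4 ± 16.7 RPKM in DCKO libraries (SD, n = 10) and 5.06 ± 3.74 RPKM in control libraries (SD, n = 8). The log2 difference, DCKO minus control, was 2.15 (SE 0.42), with 1.57 (SE 0.56) in females and 2.72 (SE 0.62) in males. It was 1.58 without male control 3 and male control 4, and 2.16 with the mean of the other-cell markers as a covariate.

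At E10.5 the same gene was less clearly separated. Scml2 was at 2.78 and 11.4 RPKM in female DCKO libraries and at 4.75 and 4.29 RPKM in female control libraries. The single male DCKO library had 15.8 RPKM, and the male control libraries had 0.250 and 3.97 RPKM. One female DCKO library thus lay below both female controls, while the other 2 DCKO libraries lay above all 4 controls. The mean was 9.97 ± 6.60 RPKM in DCKO libraries (SD, n = 3) and 3.31 ± 2.07 RPKM in control libraries (SD, n = 4). The log2 difference was 1.29 (SE 0.85), and it was 0.31 without the male DCKO library.

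**Figure D1:**
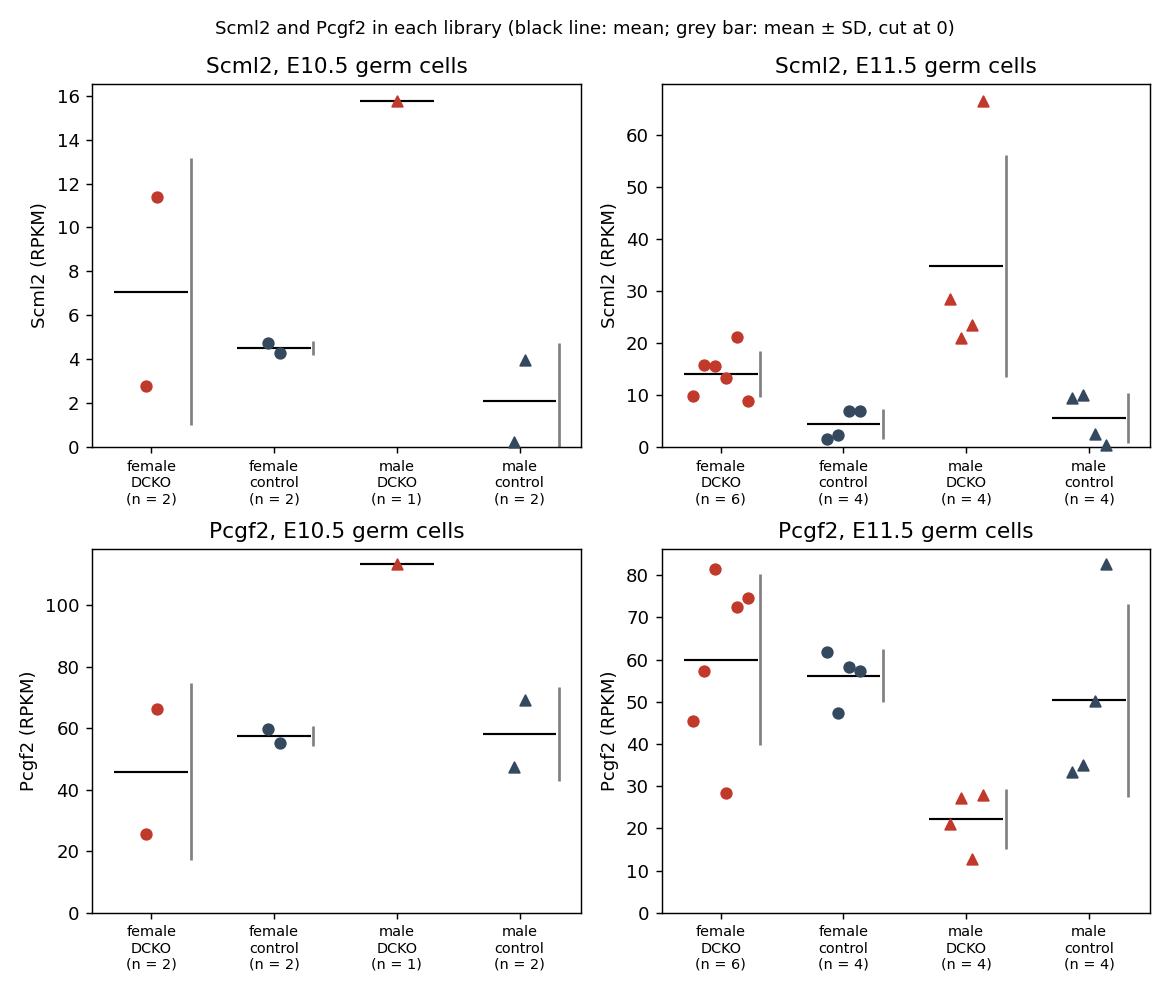
RPKM of Scml2 and Pcgf2 in every library, by stage, sex and genotype; points are libraries, black lines the mean and grey bars the SD on either side of it, cut at 0. At E11.5 Scml2 lies at 8.97 RPKM or more in DCKO libraries of both sexes. Male control 1 and male control 2 reach 9.44 and 10.05 RPKM, so the genotypes separate within each sex only. Pcgf2 lies at 28.0 RPKM or less in the 4 male DCKO libraries.

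Scmh1, the autosomal SCM gene, overlapped between genotypes at both stages. At E11.5 it ranged from 2.78 to 35.3 RPKM in female DCKO libraries (median 24.4) and was 21.2, 29.5, 29.9 and 26.0 RPKM in female control libraries. It was 64.5, 21.1, 20.2 and 17.3 RPKM in male DCKO libraries, and 17.2, 21.7, 28.3 and 2.81 RPKM in male control libraries. The log2 difference was 0.18 (SE 0.47) at E11.5 and -0.22 (SE 0.40) at E10.5. At E10.5 the DCKO libraries held 16.2, 20.9 and 31.2 RPKM and the control libraries 26.4, 21.8, 40.0 and 24.5 RPKM.

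Within the SCM pair, the share of Scml2 had the higher median in DCKO libraries at both stages. Scml2 made up 23.1% to 79.4% of the summed Scml2 and Scmh1 RPKM in E11.5 DCKO libraries (median 48.8%), and 7.13% to 35.4% in control libraries (median 14.9%). It was the higher of the pair in 3 of 10 DCKO libraries and in 0 of 8 control libraries. At E10.5 the share ran from 14.6% to 35.2% in DCKO libraries and from 0.620% to 16.4% in control libraries, and Scmh1 was the higher in all 7. These shares use the Scml2 values that chose the gene, and are a description.

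The PCGF proteins select the kind of PRC1, and Pcgf2 (Mel18) was the more abundant of the canonical pair in every library. At E11.5 Pcgf2 ranged from 28.3 to 81.4 RPKM in female DCKO libraries (median 64.9), and was 61.9, 47.2, 58.2 and 57.2 RPKM in female control libraries. It was 21.1, 27.1, 12.7 and 28.0 RPKM in male DCKO libraries, and 33.3, 35.0, 50.2 and 82.7 RPKM in male control libraries. All 4 male DCKO libraries lay below all 4 male control libraries, as they did for 1.49% of tested genes, while the female groups overlapped. The log2 difference between genotypes was -0.54 (SE 0.26) over both sexes, 0.02 (SE 0.35) in females and -1.10 (SE 0.38) in males. At E10.5 it was 0.11 (SE 0.48), and the male DCKO library held the highest value of that stage, 114 RPKM. The female DCKO libraries of E10.5 had 25.5 and 66.3 RPKM, against 59.8 and 55.3 RPKM in female and 47.4 and 69.1 RPKM in male control libraries.

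Bmi1, the other canonical PCGF protein, was lower and more scattered. At E11.5 it ranged from 6.24 to 27.0 RPKM in female DCKO libraries (median 15.1) and was 5.18, 4.81, 9.47 and 8.63 RPKM in female control libraries. In males it was 1.43, 17.8, 8.77 and 5.18 RPKM in DCKO libraries and 8.37, 9.72, 13.6 and 0.826 RPKM in control libraries. The genotypes overlapped in both sexes, and the log2 difference was 0.46 (SE 0.45). At E10.5 Bmi1 was between 3.82 and 4.90 RPKM in DCKO libraries and between 2.87 and 10.97 RPKM in control libraries, with a log2 difference of -0.34 (SE 0.62). Pcgf2 made up 51.2% to 93.7% of the pair in E11.5 DCKO libraries (median 83.2%) and 78.3% to 99.0% in control libraries (median 86.4%).

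Ring1, the catalytic RING protein, spread over a wide range. At E11.5 it ranged from 0.0569 to 28.4 RPKM in female DCKO libraries (median 13.1), and was 24.0, 26.8, 30.6 and 7.99 RPKM in female control libraries. It was 4.82, 7.31, 17.4 and 7.93 RPKM in male DCKO libraries, and 18.2, 16.9, 22.05 and 59.2 RPKM in male control libraries. The groups overlapped in both sexes, by the 17.4 RPKM library alone in males. The log2 difference was -1.42 (SE 0.58), the furthest below 0 of the 9 genes at this stage. At E10.5 Ring1 was 69.0, 6.03 and 40.8 RPKM in DCKO libraries and 28.5, 6.82, 119 and 17.9 RPKM in control libraries. Its E10.5 difference was 0.25 (SE 0.95), and it was -0.65 without female DCKO 1 and -0.34 with library weights, so its sign rests on single libraries.

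Cbx2, a reader of trimethylated lysine 27 of histone H3, was the more abundant of the CBX pair. At E11.5 it ranged from 10.3 to 45.7 RPKM in female DCKO libraries (median 17.96) and from 13.6 to 17.1 RPKM in female control libraries. In males it was 21.3, 11.1, 14.3 and 36.3 RPKM in DCKO libraries and 13.1, 18.7, 22.6 and 5.66 RPKM in control libraries. The female control libraries lay within the range of the female DCKO libraries, which spread wider in both directions. The log2 difference was 0.43 (SE 0.34) at E11.5 and 0.92 (SE 1.02) at E10.5, the E10.5 value being 0.016 without the male DCKO library. Male control 1 of E10.5 held 0.295 RPKM, against 9.66 to 26.6 RPKM in the other 6 libraries.

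Cbx8, whose gene neighbours Cbx2 on chromosome 11, was listed at 0 in 12 of 18 E11.5 libraries and in 4 of 7 E10.5 libraries. Since a value of exactly 0 may be a failed estimate here, no fold is given. The 6 E11.5 libraries above 0 were female DCKO 4 and 5 at 0.799 and 0.0540 RPKM, male DCKO 3 at 1.29 RPKM, and male control 1, 2 and 3 at 0.134, 0.983 and 0.705 RPKM. At E10.5 the male DCKO library had 0.663 RPKM, and a female and a male control library had 1.42 and 0.132 RPKM. Cbx2 was the higher of the pair in all 25 libraries, at 87.2% or more of their sum.

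Phc1, a PHC protein that bridges complexes through its SAM domain, had the highest median of the 9 genes at both stages. At E11.5 it ranged from 43.1 to 207 RPKM in female DCKO libraries (median 93.9), and was 99.3, 111, 85.4 and 125 RPKM in female control libraries. It was 33.1, 88.7, 127 and 112 RPKM in male DCKO libraries, and 103, 115, 46.1 and 50.5 RPKM in male control libraries. The genotypes overlapped throughout, and the log2 difference was 0.02 (SE 0.31). At E10.5 it was -0.61 (SE 0.43), with 52.3, 86.1 and 106 RPKM in DCKO libraries and 187, 82.5, 159 and 95.5 RPKM in control libraries.

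Phc2, the second PHC gene, stood mostly below Phc1. At E11.5 it ranged from 1.28 to 22.2 RPKM in female DCKO libraries (median 6.01), and was 2.06, 7.28, 16.9 and 11.1 RPKM in female control libraries. It was 22.1, 7.71, 8.73 and 9.56 RPKM in male DCKO libraries, and 10.7, 13.7, 24.4 and 328 RPKM in male control libraries. The last value, in male control 4, was the only one in which Phc2 exceeded Phc1. The log2 difference was -0.86 (SE 0.61), or -0.32 without that library. At E10.5 Phc2 was 4.53, 2.30 and 5.18 RPKM in DCKO libraries and 7.58, 12.2, 32.004 and 10.46 RPKM in control libraries, with a difference of -1.45 (SE 0.60). All 3 DCKO libraries lay below all 4 control libraries, which was so for 2.87% of the tested genes.

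**Figure D2:**
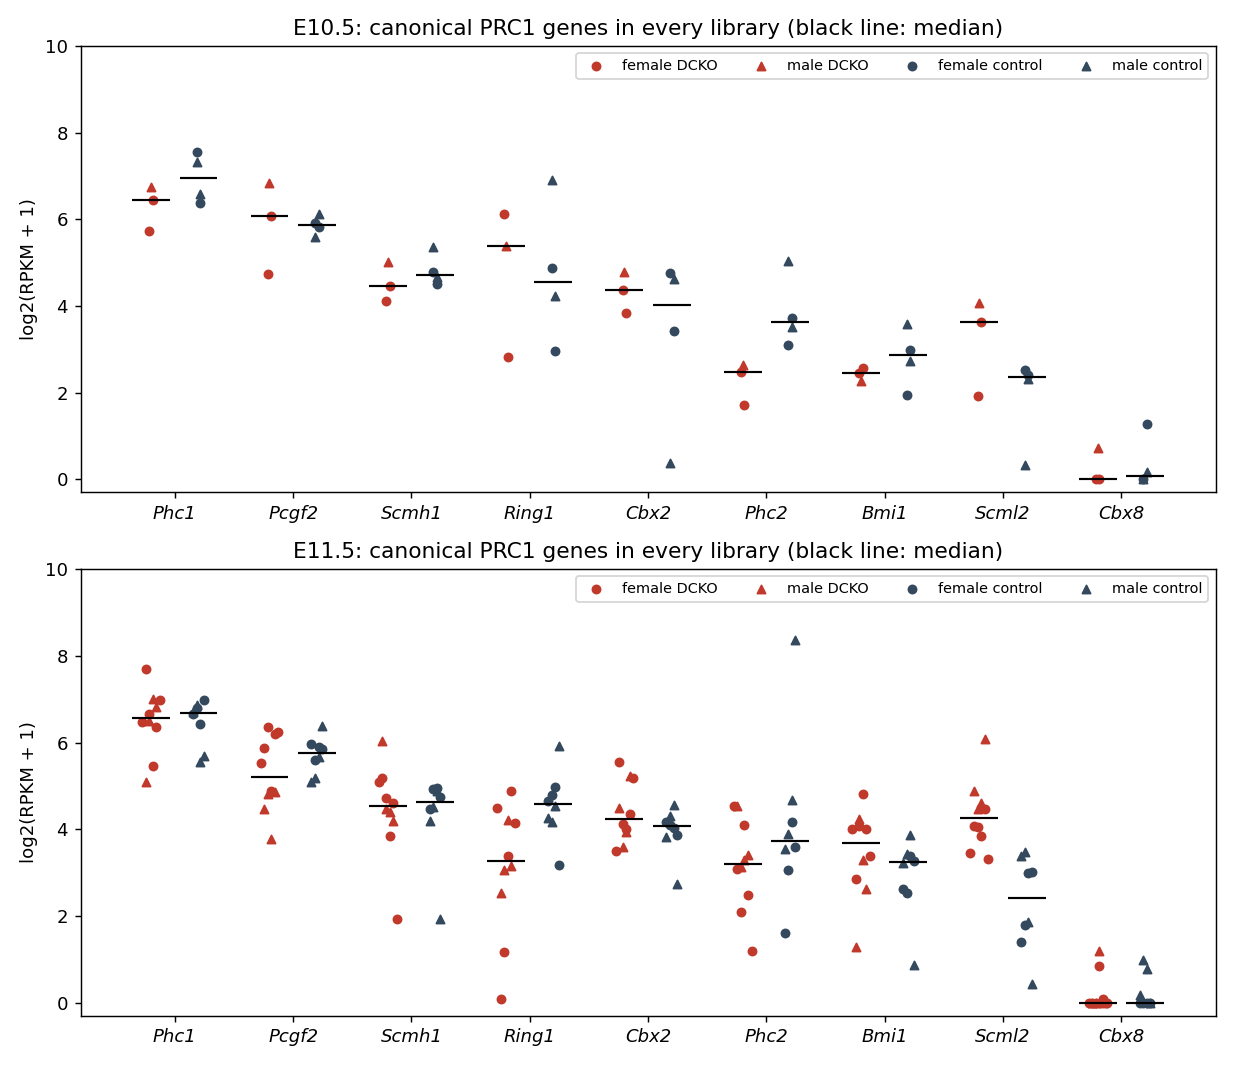
Levels of the 9 genes in every library as log2(RPKM + 1), 1 panel per stage, DCKO (red) left of control (blue) for each gene, circles for females, triangles for males and a line at the median. At E11.5 Phc1 has the highest median in both genotypes and Cbx8 the lowest, though other genes exceed Phc1 in some libraries. Phc1 is at 33.1 RPKM or more in each library.

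Across the 8 genes tested, the differences between genotypes did not share a direction. At E11.5 5 of 8 lay above 0, with a median of 0.10, where 45% of all tested genes lay above 0 and their median was -0.06. At E10.5 4 of 8 lay above 0, with a median of -0.06, against 46.8% and -0.05 for all tested genes. Scml2 was the furthest above 0 at both stages. Leaving out single libraries turned the sign at E11.5 for Scmh1 (-0.15 without male control 4) and Phc1 (-0.09 without female DCKO 2). These stayed above 0 in 16 and 10 of 18 such fits. At E10.5 the sign turned without the male DCKO library for Bmi1 (0.031) and Pcgf2 (-0.47), and without female DCKO 1 for Ring1 (-0.65). Of 7 such fits, Bmi1 was above 0 in 1, and Pcgf2 and Ring1 each in 4. Limma called 0.0237% of all tested genes between genotypes at E11.5 and 0.0% at E10.5 (adjusted p under 0.05 by the Benjamini-Hochberg method); the 9 genes were chosen on this contrast, so no call is read for them.

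**Figure D3:**
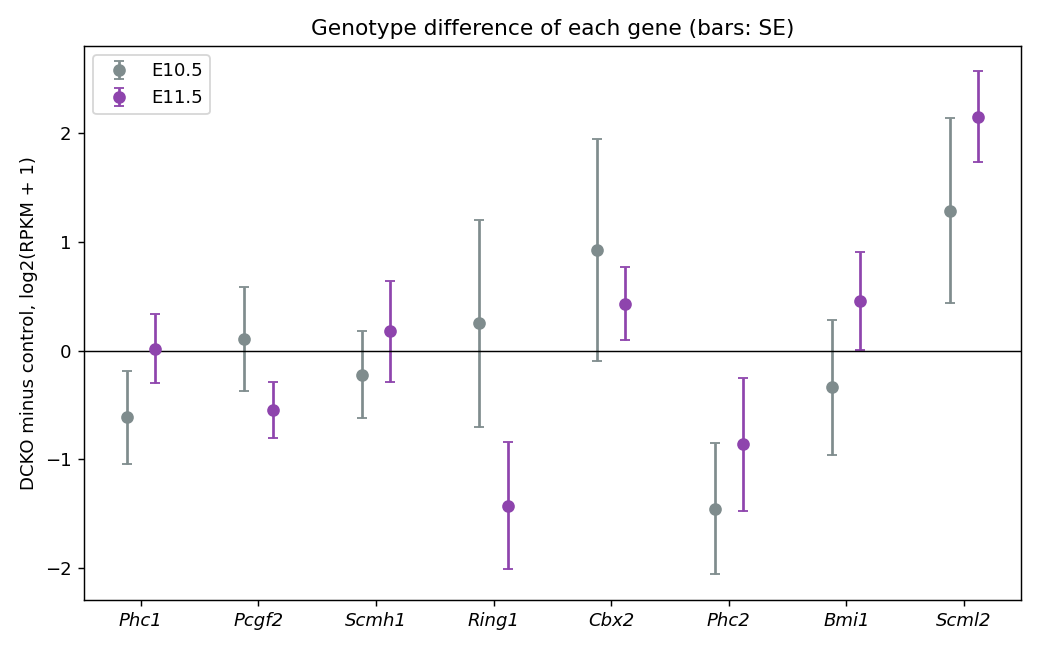
Difference DCKO minus control in log2(RPKM + 1) for the 8 genes tested, with its SE, at both stages; the line at 0 marks no difference. Scml2 lies highest at both stages (2.15 at E11.5, 1.29 at E10.5), and the other genes lie on both sides of 0.

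Phc1, Pcgf2 and Scmh1 led the order of levels in both genotypes at E11.5. By median RPKM in E11.5 DCKO libraries it ran Phc1 (94.0), Pcgf2 (36.9), Scmh1 (22.2), Scml2 (18.4), Cbx2 (17.96), Bmi1 (12.2), Ring1 (8.68), Phc2 (8.22) and Cbx8 (0). In E11.5 control libraries it ran Phc1 (101.2), Pcgf2 (53.7), Scmh1 (23.8), Ring1 (23.0), Cbx2 (15.8), Phc2 (12.4), Bmi1 (8.50), Scml2 (4.77) and Cbx8 (0). By median, Scml2 stood above Cbx2 and Bmi1 in DCKO libraries and below both in control libraries, though it exceeded Cbx2 in 5 of 10 DCKO libraries. Over all 18 libraries Phc1 exceeded Pcgf2 in 16, Pcgf2 exceeded Scmh1 in 16, and Bmi1 exceeded Cbx8 in 18. The genes between them in rank crossed often: Scmh1 exceeded Ring1 in 12 libraries, Ring1 exceeded Cbx2 in 8, Cbx2 exceeded Phc2 in 12, Phc2 exceeded Scml2 in 10 and Scml2 exceeded Bmi1 in 8. These neighbours were not separated beyond the spread of the libraries. At E10.5 Scml2 had a median of 11.4 RPKM in DCKO libraries and 4.13 RPKM in control libraries, where it was the lowest apart from Cbx8, and Phc1 and Pcgf2 again led.

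**Figure D4:**
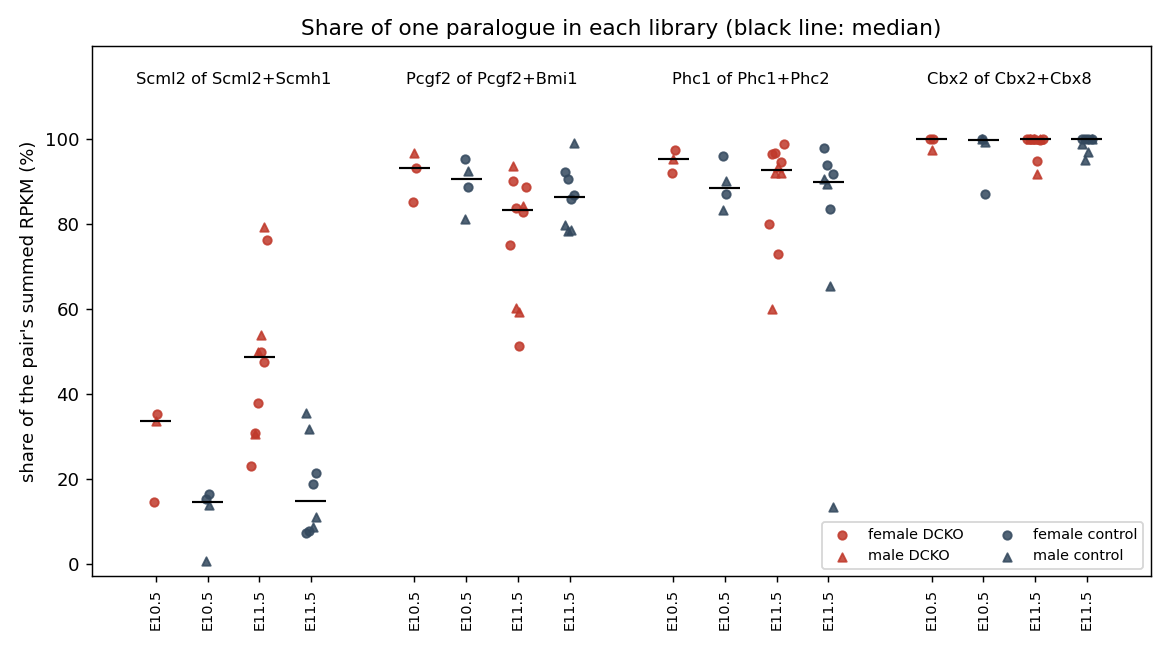
Share of the first gene in the summed RPKM of each related pair (Scml2 of Scml2 and Scmh1, Pcgf2 of Pcgf2 and Bmi1, Cbx2 of Cbx2 and Cbx8, Phc1 of Phc1 and Phc2), in percent, with 1 point per library, DCKO (red) left of control (blue) at each stage, circles for females, triangles for males and a line at the median. In the SCM pair E11.5 DCKO libraries reach 79.4% while control libraries stay at 35.4% or below; in the PHC pair a single control library falls to 13.4%.

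The choice of the genes did not use sex, so the difference between female and male germ cells was tested. Group sizes were unequal at both stages, so the sex difference is not wholly separate from the genotype contrast that chose the genes. The p-values for sex carry that limit. The sex labels matched the Y-linked gene Eif2s3y, which was at most 0.275 RPKM in female libraries and at least 19.4 RPKM in male libraries at E11.5, and at most 0.177 and at least 38.7 RPKM at E10.5. At E11.5 0 of the 8 genes passed in limma, with 2 of 8 at an unadjusted p under 0.05, against 722 of 12667 for all genes, and 0.0395% of all tested genes passed. The labels do not say whether libraries came from separate embryos, so the p-values rest on a spread that could be partly technical.

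Pcgf2 had the smallest p of the 8 genes. Its female minus male difference was 0.81 (SE 0.26, limma adjusted p = 0.775). By genotype, the female minus male difference was 1.37 (SE 0.35, limma adjusted p = 0.311) in DCKO libraries and 0.25 (SE 0.38) in control libraries. Every female DCKO library lay above every male DCKO library, by 28.3 against 28.0 RPKM at the nearest, and 0.924% of tested genes separated in this way. Giving libraries weights by their estimated quality brought the Pcgf2 difference to 1.02 with a limma adjusted p of 0.0275. Over 31 alternatives that adjusted p ran from 0.0275 to 1.

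Scml2, although X-linked, had the lower mean in female libraries, and the difference did not pass. It averaged 10.3 ± 6.20 RPKM in female libraries (SD, n = 10) and 20.3 ± 21.2 RPKM in male libraries (SD, n = 8). The female minus male log2 difference was -0.57 (SE 0.42), with a limma adjusted p of 0.904. Permuting sex within genotype over all 14700 splits gave an exact two-sided p of 0.228. It was -1.14 (SE 0.56, limma adjusted p = 0.668) in DCKO libraries and 0.01 (SE 0.62) in control libraries. Male control 4, with 0.347 RPKM, bears on this value: without it the difference was -0.88 with an exact permutation p of 0.0301. Without male control 3 as well, a choice made after seeing the data, it was -1.14 with an exact permutation p of 0.0073. Both libraries were low in Scml2, so leaving them out widens the difference. With a replicate block by the number in the sample title the limma difference was 0.029. Over 23 alternatives the exact permutation p ran from 0.0073 to 0.465. The 464 X-linked genes tested had a median female minus male difference of 0.28, with 69.6% above 0, and 6.90% of them lay below the Scml2 value. The 11603 autosomal genes had a median of 0.07, with 55.4% above 0 and 9.82% below the Scml2 value.

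Among the other genes, Phc2 had a female minus male difference of -1.34 (SE 0.61, limma adjusted p = 0.864), which was -0.80 without male control 4. The differences were 0.55 (SE 0.45) for Bmi1, 0.38 (SE 0.31) for Phc1, 0.18 (SE 0.47) for Scmh1, 0.17 (SE 0.34) for Cbx2 and -0.27 (SE 0.58) for Ring1. Their limma adjusted p-values were between 0.904 and 0.975. At E10.5 none of the 8 genes passed either, while 0.0173% of all tested genes passed. At an unadjusted limma p under 0.05 there were 0 of the 8 genes, against 419 of 11584 for all genes. Scml2 differed by 0.17 (SE 0.85, limma adjusted p = 0.99) and Pcgf2 by -0.57 (SE 0.48, limma adjusted p = 0.959) there, the Pcgf2 value being of opposite sign to that of E11.5.

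Whether genotype acted unequally in the sexes was tested at E11.5 as the female minus the male genotype difference. Group sizes were unequal, so this value is not wholly separate from the genotype contrast that chose the genes. Its p-values carry that limit. For Scml2 this was -1.15 (SE 0.84, limma adjusted p = 0.995), with the larger genotype difference in males. It was -0.53 without male control 4 and 0.00041 with library weights. For Pcgf2 it was 1.12 (SE 0.51, limma adjusted p = 0.995), the male DCKO libraries having the lowest median of the 4 groups. By limma 0.0% of all genes passed, with 454 of 12667 and 1 of the 8 genes at an unadjusted p under 0.05, and that gene was Pcgf2.

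The other Polycomb genes were tested for genotype. Earlier results of these data were known when their lists were chosen. The choice may therefore not be independent of genotype, and the p-values of all 3 lists carry that limit. No gene of 3 lists passed in limma at either stage. Of all tested genes, 3 of 12667 passed at E11.5 and 0 of 11584 at E10.5. Dnmt1, the targeted gene, was thus not called at E10.5, although its DCKO and control libraries did not overlap. The lack of a call therefore does not show that a gene was unchanged. Of the other canonical PRC1 genes, 4 of 6 were measured well enough at E11.5, and 2 lay above 0, with a median of -0.12. Rnf2, the RING partner that can replace Ring1, differed by 0.48 (SE 0.34, limma adjusted p = 0.946), and Cbx7, a further CBX reader, by -0.87 (SE 0.53, limma adjusted p = 0.912). Of 16 variant PRC1 genes, in which Rybp or Yaf2 takes the place of a CBX protein, 11 lay above 0 at E11.5, with a median of 0.15. Fbrsl1, a relative of the Auts2 subunit, differed by -0.49 (SE 0.36) and Csnk2a1, a casein kinase 2 catalytic subunit, by 0.27 (SE 0.22), each with a limma adjusted p of 0.946. The Fbrsl1 mean joins a difference of -1.80 (SE 0.49, limma adjusted p = 1) in females and 0.83 (SE 0.53, limma adjusted p = 0.774) in males. Its interaction was -2.63 (SE 0.72, limma adjusted p = 0.995).

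Genes that remove ubiquitin from histone H2A gave a similar picture. Of 8 such genes, 3 lay above 0 at E11.5, with a median of -0.06. Usp21, an H2A deubiquitinase, differed by -0.70 (SE 0.30, limma adjusted p = 0.902). It was the one gene of the 3 lists at an unadjusted p under 0.05 over both sexes, against 692 of 12667 for all genes. Asxl3, a cofactor of the deubiquitinase Bap1, differed by 0.68 (SE 0.50, limma adjusted p = 0.946). Usp7, the partner of Scml2, differed by -0.07 (SE 0.21, limma adjusted p = 0.992) at E11.5 and by 0.37 (SE 0.37, limma adjusted p = 0.991) at E10.5. At E10.5 the 3 lists had 0 of 3, 9 of 16 and 4 of 7 tested genes above 0, with limma adjusted p of 0.991 or more. None of them was at an unadjusted p under 0.05, against 358 of 11584 for all genes.

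The genes whose levels followed Scml2 most closely were sought over the 18 E11.5 libraries. Each gene's log2 value was centred on its group of sex and genotype, so that the difference between genotypes did not enter. Among 7466 genes that averaged 5 RPKM or more and were never at 0, the highest Pearson r was that of Trabd, at 0.87 (rho 0.78). Actr3, a subunit of the actin-nucleating Arp2/3 complex, followed with 0.85 (rho 0.81), then Adamts14, a secreted metalloprotease, with 0.82 (rho 0.72). Clptm1l had 0.81 (rho 0.76) and Slc45a4 0.81 (rho 0.69). The 2 libraries whose centred Scml2 value lay farthest from the median of the centred values were male control 4 and male control 2. Without them these r were 0.82, 0.76, 0.76, 0.66 and 0.64 in the same order. Over the 7 E10.5 libraries, without centring, they were 0.33, 0.01, -0.15, -0.61 and 0.08. The rho over those 7 libraries were 0.64, -0.39, -0.14, -0.36 and 0. In all, 562 genes had an r above 0.5 with Scml2, and no p is given because these 5 were picked as the highest. Of the other tested subunits, Scmh1 ranked 851, Cbx2 866, Bmi1 1133 and Phc1 1361 of 7466, with r of 0.43, 0.43, 0.38 and 0.34. Pcgf2 ranked 6160, Ring1 6437 and Phc2 6675, with r below 0.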

How the data were processed

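Polyadenylated RNA of sorted PGCs was sequenced, and the authors deposited 1 table of RPKM values per stage, with 1 column per library. Per the submitters' processing notes, build mm9, TopHat2 2.1.0, Cufflinks 2.2.1 and Cuffdiff were used; the step that made the tables, with its gene models and filters, is not given in the sources used. Amplification before library preparation, per the labels' protocols, can widen the spread of low genes. The 9 genes, the other Polycomb lists and the markers were chosen with earlier results of these data known.

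Libraries were grouped by stage, sex and genotype in the labels. Stages were never compared by test, because their normalization may differ. Limma 3.58.1 in R 4.3.3 was run with an intensity trend on log2(RPKM + 1), over genes whose mean reached 1 RPKM, with Benjamini-Hochberg adjustment over all of them and a threshold of 0.05, two-sided. The E11.5 model held 4 group means and the E10.5 model additive genotype and sex terms. The model was tested on simulated data first. The genes named were all 9, the 2 with the smallest p of each other Polycomb list, and the 5 most like Scml2; Usp7 was named beyond that rule. Alternatives were pseudocounts of 0.1 and 0.5, no filter or a mean of at least 5 RPKM, median-of-ratios and quantile scaling, library weights, an other-cell marker covariate, a replicate block and leaving out each library. Leaving out male control 3 and male control 4 together was chosen after seeing the data.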

Additional observations from a re-analysis of the deposited data

Results flagged for a closer look

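For each gene, the 4 E11.5 groups of sex and genotype were examined for a single distant library, in 35 groups with any spread. On the log2(RPKM + 1) scale 3 groups held one, and on the RPKM scale itself 7 did. Chance alone gives about 1 in 20 groups if values are normally distributed. That rate is not known for skewed RPKM or for tied Cbx8 values, so no excess is read from these counts. On both scales Cbx8 was at 0.799 RPKM in female DCKO 4, while the other 5 female DCKO libraries were at 0.0540 RPKM or listed at 0. Female DCKO 4 also had the highest mean of other-cell markers of the DCKO libraries, 3.86, and the part of those cells in the Cbx8 value was not tested. Cbx8 was at 1.29 RPKM in male DCKO 3, with the other 3 male DCKO libraries listed at 0; with the others equal, any value above 0 stands out in this way. On both scales Scmh1 was at 64.5 RPKM in male DCKO 1, with the other 3 male DCKO libraries between 17.3 and 21.1 RPKM. Male DCKO 1 also had the lowest mean of PGC markers of the E11.5 DCKO libraries, 5.09, and their highest Dnmt1, 59.4 RPKM. Its mesenchymal markers summed to 303 RPKM, and the part of other cells in its values was not tested. On the RPKM scale alone, Scml2 stood out at 66.6 RPKM in male DCKO 4, Phc2 at 22.1 RPKM in male DCKO 1 and at 328 RPKM in male control 4, and Ring1 at 59.2 RPKM in male control 4.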

How the results depend on the processing

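Depth is unknown, and Cbx8 was too low to test. The E11.5 difference between genotypes in Scml2 stayed above 0 over 27 alternatives, from 1.54 to 2.53, and that of E10.5 over 15, from 0.31 to 1.96. With library weights 1 of the 8 genes differed by sex at E11.5, Pcgf2, where 0 did otherwise; over all genes the count was 51 with library weights and 1 to 12 otherwise, against 5. At E10.5 it was 1 to 6, against 2. The Scml2 sex permutation ranged from -0.88 to -0.37 when each library was left out, and was -1.14 without male control 3 and male control 4. The sex difference changed sign for Scml2 at E11.5 in control libraries (0.0062) and at E10.5 on leaving out single libraries (-0.57 to 1.15). It did so for E11.5 Scmh1 in DCKO libraries (-0.55), without male control 3 and male control 4 (-0.058) and on leaving out single libraries (-0.15 to 0.41). On leaving out single libraries it also did so for Ring1 (-0.45 to 0.028), Cbx2 (-0.020 to 0.32) and E10.5 Pcgf2 (-0.85 to 0.0076). With library weights the Scml2 interaction was 0.00041. The cause was not tested. Of pairs with equal replicate number, 5 of 24 at E11.5 and 0 of 6 at E10.5 had a correlation of deviations over 0.1. The E11.5 median was 0.00855, against 0.00125 in 96 other pairs. By the number in the sample title, 7 of 16 and 0 of 4 pairs passed 0.1. There the E11.5 median was 0.081 and the highest 0.49, against a median of -0.0046 in 104 other pairs. Some E11.5 libraries of equal title number thus deviated together, and the main fits hold no block for that number. With a replicate block 0 of the 8 genes differed by sex. With the replicate block by title number the Scml2 sex difference was 0.029 at E11.5 and -0.17 at E10.5, and that of Scmh1 -0.16.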
